A study of Mus musculus with 10 samples.

Results

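Hippocampi of 4 mice with subarachnoid hemorrhage (SAH) were compared with those of 3 Sham mice, 7 of the 10 mice of the series, to see what perforation of an artery added to filament surgery. All were male mice 10 to 14 weeks of age, of a strain printed as C56BL/6J in the study's methods, and 1 RNA-seq library was made from the pooled left and right whole hippocampus of each mouse 4 days after the procedure. In SAH mice 1 to 4 a filament passed through the carotid artery punctured the circle of Willis, the arterial ring under the brain, on 1 side. In Sham mice 5 to 7 the filament went in as far as the artery allowed and was taken out with the wall intact, so both groups shared anesthesia, neck surgery and the filament in the vessel. Naive mice 8 to 10 had no operation and took no part in the main comparison. Their values stand beside some results, and they entered an alternative fit of all 10 mice and the scaling of the printed CPM. The study kept only SAH mice whose cortical blood flow dropped sharply at perforation, so the SAH group was selected on severity and the Sham group was not.

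Blood in the subarachnoid space reaches the brain surface and the fluid spaces around penetrating vessels, where macrophages and microglia take up red cells and break down heme. Interferons, signal proteins of antiviral defense, switch on a common set of antiviral and antigen-presentation genes through STAT and IRF factors bound to short promoter elements. Oligodendrocytes wrap axons in myelin, and neurons switch on immediate early genes such as Fos and Arc within minutes of firing. These cell types all contribute to RNA from whole hippocampus, so fewer cells of a type and less RNA per cell cannot be told apart in these libraries.

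Between 20099076 and 26866167 read pairs were counted on genes in each SAH mouse, and between 24080219 and 27254655 in each Sham mouse. Hippocampal markers were present in each library: Prox1, a factor of dentate granule neurons, had 62.1, 64.2, 84.4 and 71.9 CPM (counts scaled to library size) in SAH mice 1 to 4 and 48.5, 65.1 and 69.5 CPM in Sham mice 5 to 7. SAH 3 stood apart from the other 6 libraries, with a coordinate of 39.5 on the first principal component (39.3% of the variance) against −17.3 to 10.2, so key counts are also given without it. The 10 choroid plexus genes also varied among mice of both groups. Ttr, the thyroid hormone carrier made by choroid plexus epithelium, had 66.9, 172, 1109 and 769 CPM in SAH and 173, 24.8 and 740.1 CPM in Sham. SAH 3, SAH 4 and Sham 7 were the high libraries. The score of the 10 genes (mean log2 CPM relative to Sham) ran from −0.64 to 1.84 in SAH, from −1.24 to 1.36 in Sham and from −1.596 to −1.09 in Naive mice. A fit with that score as a covariate, chosen after seeing the data, called 9 genes (0.0598% of 15051) higher, among them Lyz2, Serping1, Itih2, Efemp1 and Mgp of the 12 below. The other 7, Irf7, Ifitm3, F13a1, Cp, Fbln5, Ptrf and Pisd-ps2, did not pass with it (adjusted p = 0.1002 to 0.132, edgeR), while their log2 fold changes were 0.50 to 2.17 against 0.52 to 2.32 without it. Red cell content could not be read from hemoglobin genes, which are listed at 0 counts in each mouse. Why they stand at 0 was not tested. Alas2, the heme synthesis enzyme of red cell precursors, had 1.06, 3.68, 2.17 and 2.12 CPM in SAH and 1.36, 2.57 and 1.81 CPM in Sham, and these ranges overlapped.

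Of 15051 genes tested, 12 (0.0797%) rose in SAH over Sham and 0 (0%) fell at an adjusted p under 0.10 (edgeR's quasi-likelihood test, Benjamini-Hochberg). The 12 were Lyz2, Serping1, Fbln5, Mgp, Ptrf, Itih2, F13a1, Irf7, Efemp1, Pisd-ps2, Cp and Ifitm3. They rose by 1.43-fold to 5.00-fold, and their mean levels in SAH ran from 5.26 to 29.8 CPM. At an unadjusted p under 0.05 there were 741 genes (4.92%) higher and 435 (2.89%) lower. All 4 SAH mice lay above all 3 Sham mice for 755 genes (5.02%) and below them for 682 (4.53%). The median log2 fold change over all genes was 0.00, and 90% of genes lay between −0.25 and 0.47.

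**Figure D1:**
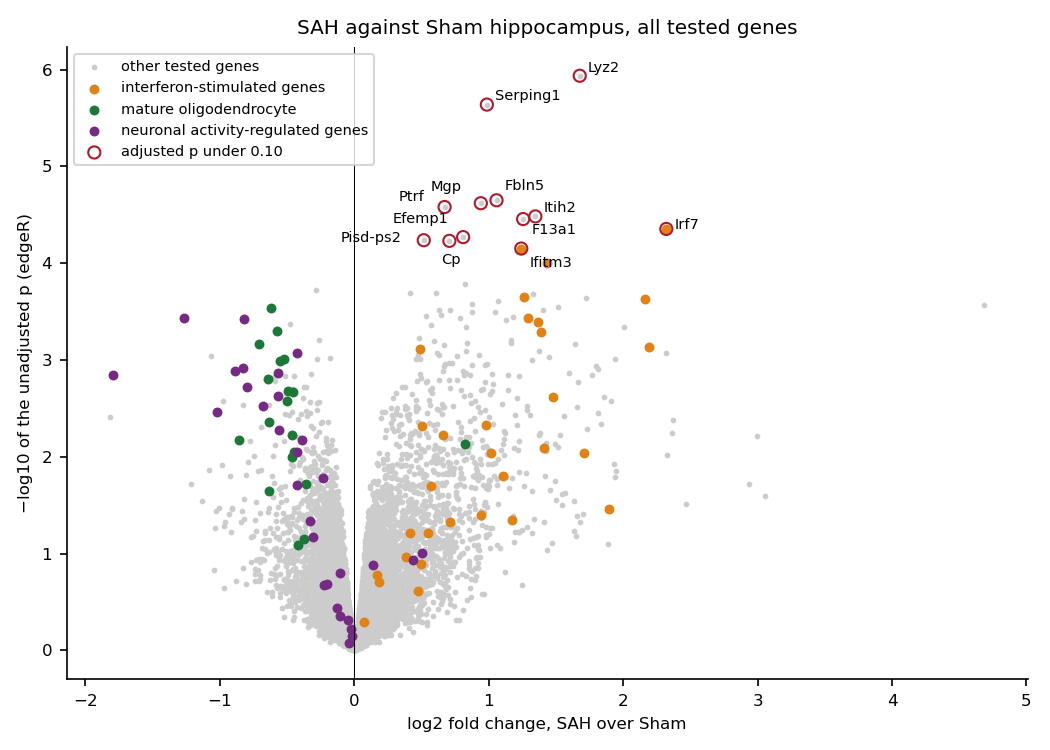
Each point is a gene, with its log2 fold change of SAH over Sham (x axis) and −log10 of its unadjusted edgeR p (y axis), and circles mark the 12 genes past the threshold. Interferon-stimulated genes (orange) sit to the right of 0, while most mature oligodendrocyte (green) and activity-regulated genes (purple) sit to the left without passing the threshold.

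How many genes passed differed widely between fits. DESeq2 on the same 7 mice called 182 higher (0.943% of the 19292 genes given a p) and 54 lower (0.28%). It adjusts p only over genes that pass its filter, a number not given here. Its shares are therefore not directly comparable with those of edgeR. That fit used DESeq2's own filter in place of the count minimum, and edgeR without a minimum called 39 higher and 7 lower of 19295 genes. The count was 2 higher (Lyz2 and Serping1) and 0 lower with limma-voom, and an edgeR fit with the Naive mice included called 80 higher (0.529% of 15134) and 29 lower (0.192%). Without SAH 3 there were 98 higher (0.654% of 14976) and 27 lower (0.18%), and without SAH 2 there were 43 and 6. Without SAH 4, Sham 5 or Sham 7 the counts were 0 and 0, with 924, 788 and 861 genes at an unadjusted p under 0.05, and no other tool was run on these subsets. Without SAH 1 Lyz2 alone passed, and without Sham 6 Lyz2, Serping1 and Itih2 did. All 12 genes kept a positive log2 fold change in each of these fits.

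**Figure D2:**
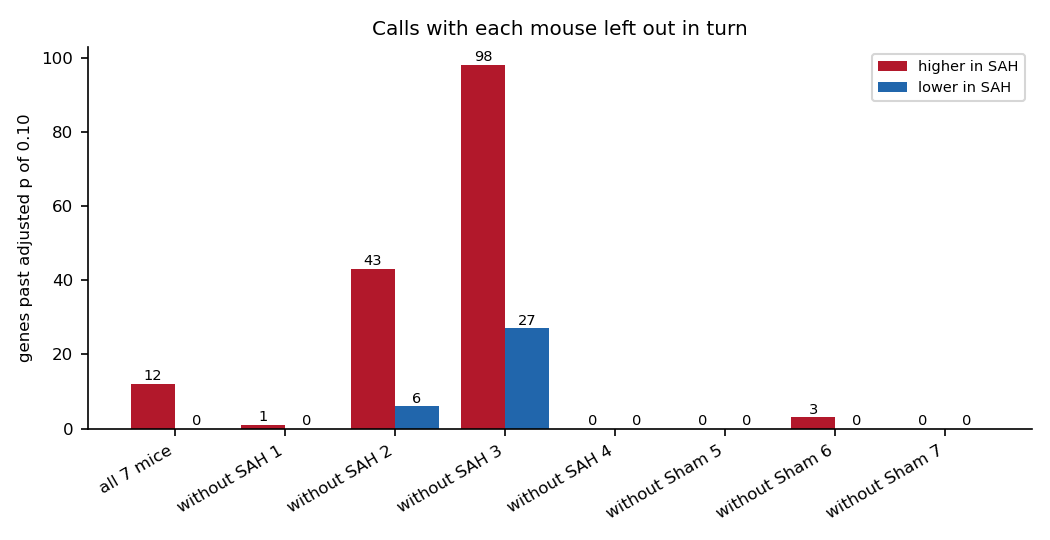
Bars show how many genes were higher (red) or lower (blue) in SAH at an adjusted p under 0.10 with all 7 mice and with each mouse left out. The count of higher genes ran from 0 to 98 and rose most when SAH 3 was left out.

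Lyz2 (chr10:116714597-116719328, mm9) encodes lysozyme of macrophages and other myeloid cells. It had 21.7, 14.5, 14.6 and 17.8 CPM in SAH mice 1 to 4, 4.99, 5.18 and 5.91 CPM in Sham mice 5 to 7 and 4.70, 4.27 and 5.01 CPM in Naive mice 8 to 10. Each SAH mouse was well above each Sham mouse, and Sham mice were close to Naive mice. Its log2 fold change (log2FC) was 1.68 ± 0.16 (SE), or 3.20-fold (adjusted p = 0.0173). F13a1 (chr13:36959047-37142113), the clotting factor XIII chain carried by border macrophages, had 5.37, 4.27, 5.40 and 5.99 CPM in SAH and 1.82, 2.50 and 2.25 CPM in Sham. The groups did not overlap, and the log2 fold change was 1.26 ± 0.18 (adjusted p = 0.0752).

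Serping1 (chr2:84605517-84615586) encodes C1 inhibitor, which blocks the proteases that start the classical complement pathway. Its level was 17.6, 17.5, 14.7 and 17.7 CPM in SAH and 8.01, 9.23 and 8.37 CPM in Sham, with Naive mice at 6.59, 6.33 and 6.37 CPM. SAH 3 was the lowest SAH mouse and still exceeded each Sham mouse. The log2FC of 0.99 ± 0.10 (adjusted p = 0.0173) stood beside that of Lyz2 as the smallest adjusted p, and no other gene passed at an adjusted p under 0.05.

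Irf7 (chr7:148449082-148452323), the interferon regulatory factor that amplifies type I interferon responses, had the largest rise of the 12. It had 4.88, 3.27, 5.66 and 8.11 CPM in SAH, 1.49, 0.919 and 0.885 CPM in Sham and 1.51, 1.39 and 1.49 CPM in Naive mice. SAH 4 was highest and SAH 2 lowest among SAH mice. The log2 fold change was 2.32 ± 0.33 (adjusted p = 0.0804). Ifitm3 (chr7:148195489-148196643), a membrane protein that blocks entry of viruses, had 18.7, 10.8, 16.8 and 19.5 CPM in SAH against 6.56, 7.02 and 7.20 CPM in Sham, with SAH 2 again the lowest SAH mouse. Its log2 fold change was 1.24 ± 0.19 (adjusted p = 0.0885).

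A further 4 of the 12 genes that rose were Fbln5, Efemp1, Mgp and Itih2. Fbln5 (chr12:102984775-103057329), which helps to assemble elastic fibers, had 8.17, 6.10, 7.68 and 7.67 CPM in SAH and 3.22, 3.75 and 3.66 CPM in Sham (log2FC 1.06 ± 0.14, adjusted p = 0.0752). Efemp1 (chr11:28753205-28826743), another fibulin, had 20.3, 17.8, 14.1 and 18.02 CPM against 10.1, 10.1 and 9.77 CPM (log2FC 0.81 ± 0.12, adjusted p = 0.0804). Mgp (chr6:136820956-136824326), an inhibitor of calcification in vessel walls, had 19.05, 14.3, 13.5 and 15.9 CPM against 8.30, 7.76 and 8.49 CPM (log2FC 0.94 ± 0.13, adjusted p = 0.0752). For these genes the lowest SAH mouse was above the highest Sham mouse. Itih2 (chr2:10016218-10052310), a heavy chain that is coupled to hyaluronan, had 9.28, 7.80, 7.57 and 7.83 CPM against 2.39, 4.23 and 2.90 CPM (log2FC 1.35 ± 0.19, adjusted p = 0.0752), with SAH 1 the highest.

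The remaining 3 were Cp, Ptrf and Pisd-ps2. Cp (chr3:19857054-19909750) encodes ceruloplasmin, a copper-containing ferroxidase that astrocytes also anchor to their surface to export iron. It had 24.9, 26.95, 29.7 and 32.8 CPM in SAH and 15.8, 18.1 and 18.7 CPM in Sham (log2FC 0.71 ± 0.11, adjusted p = 0.0804). Ptrf (chr11:100818051-100831931), also called cavin-1, coats caveolae in endothelium and other cells and had 21.8, 21.5, 21.8 and 25.1 CPM against 12.8, 15.1 and 14.5 CPM (log2FC 0.67 ± 0.09, adjusted p = 0.0752). Groups were separate for both. Pisd-ps2 (chr17:3064318-3084183) is annotated as a pseudogene of a phosphatidylserine decarboxylase, so reads shared with its parent may be lost and the count is uncertain. Its CPM was 29.1, 30.7, 30.1 and 29.2 in SAH, 22.9, 18.9 and 20.7 in Sham and 36.1, 21.2 and 21.6 in Naive mice, with Naive 8 above each SAH mouse. Its log2 fold change was 0.52 ± 0.08 (adjusted p = 0.0804), and with the Naive mice in the fit it did not pass (adjusted p = 0.238, with a range of 1.64e-05 to 0.536 over the 16 other fits).

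None of the 12 genes passed the threshold between Sham and Naive mice. Their Sham minus Naive log2 differences ran from −0.42 to 0.60 (adjusted p = 0.9998 for each, edgeR fit of all 10 mice). Even so, in 6 of the 12 each Sham mouse lay above each Naive mouse. The share of all genes with that order was not counted, so whether 6 of 12 is unusual was not tested. Over all genes, 1 of 15134 (0.00661%) passed between Sham and Naive, the sulfate transporter gene Slc13a4 (log2 difference 1.51, adjusted p = 0.0488), named here after its values were seen.

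**Figure D3:**
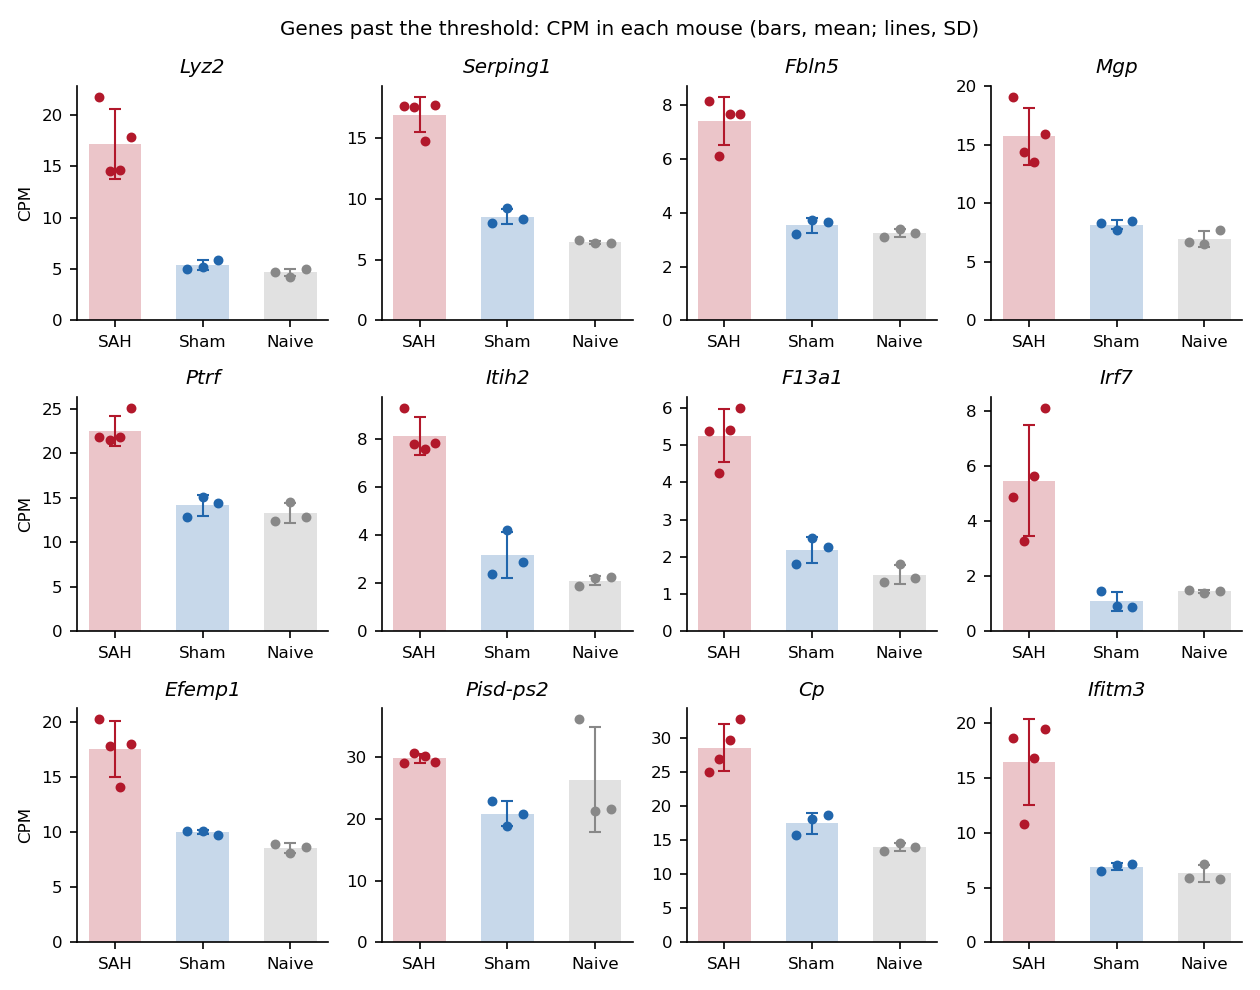
Points are the CPM of single mice for the 12 genes past the threshold, bars are group means and lines are SD (SAH n = 4, Sham n = 3, Naive n = 3). In all 12 panels the SAH mice lie above the Sham mice, and in the Pisd-ps2 panel Naive 8 lies higher still.

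Interferon-stimulated genes had higher mean levels in SAH throughout the list, though few passed singly. Of 32 listed genes 31 were tested. All 31 had a log2 fold change above 0, against 49.4% of all tested genes, with a median of 1.02. Irf7 and Ifitm3 passed the test, and in 20 (64.5%) all SAH mice lay above all Sham mice, against 5.02% of all genes. Without SAH 3, 10 of 30 passed, DESeq2 called 13 and the fit with Naive mice 10. Over all genes those shares were 0.654%, 0.943% and 0.529% (higher). With limma-voom, with the choroid plexus covariate and without any 1 of SAH 1, SAH 4, Sham 5, Sham 6 and Sham 7, 0 passed. The list median in these fits ran from 0.75 to 1.06, the latter with the covariate. Scores of the list were 1.01, 0.64, 0.59 and 1.36 in SAH mice 1 to 4 and 0.04, −0.06 and 0.03 in Sham mice 5 to 7. SAH 4 and SAH 1 were the highest.

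Promoters of interferon-responsive genes often carry the interferon-stimulated response element, whose core GAAANNGAAA was searched on both strands in RefSeq windows (build GRCm38.p6, not the mm9 of the gene coordinates above) from 250 bases before to 50 bases after each annotated start. Overlapping matches were allowed. Of the 11368 tested genes with a window 3.56% held the core, as did 3.99% of all 27025 genes with a window, tested or not. Against these stood 12 of the 21 interferon-stimulated genes with a window (57.1%). All 9 interferon gamma-induced GTPase genes with a window held it, members not tested for expression among them. So did 4 of 16 MHC class I genes, 4 of 23 activity-regulated genes (17.4%), whose means were lower in SAH, and 0 of 15 mature oligodendrocyte genes. Among the 12 genes that rose, 8 had a window and 2 held the core, Ifitm3 and Fbln5, both after the start. Bst2, Gbp3 and Irgm1 are shown as members of these lists whose matches lie before the start, and Ifitm3 as the gene that rose. The core or its reverse complement is in capitals and letters run 5′ to 3′ on the gene's strand.
Bst2, 250 bases before the start, chr8:71537473-71537722, minus strand: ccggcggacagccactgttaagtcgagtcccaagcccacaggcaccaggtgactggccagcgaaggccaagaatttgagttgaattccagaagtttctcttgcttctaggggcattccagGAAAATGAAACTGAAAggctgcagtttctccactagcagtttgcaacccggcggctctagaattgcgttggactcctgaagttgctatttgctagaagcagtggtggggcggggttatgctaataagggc
Gbp3, 250 bases before the start, chr3:142559794-142560043, plus strand: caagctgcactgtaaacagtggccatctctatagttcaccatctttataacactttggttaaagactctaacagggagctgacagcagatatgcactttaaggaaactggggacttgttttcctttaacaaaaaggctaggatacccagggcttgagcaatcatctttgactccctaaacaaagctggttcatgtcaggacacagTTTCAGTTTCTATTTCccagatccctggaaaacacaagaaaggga
Irgm1, 250 bases before the start, chr11:48871421-48871670, minus strand: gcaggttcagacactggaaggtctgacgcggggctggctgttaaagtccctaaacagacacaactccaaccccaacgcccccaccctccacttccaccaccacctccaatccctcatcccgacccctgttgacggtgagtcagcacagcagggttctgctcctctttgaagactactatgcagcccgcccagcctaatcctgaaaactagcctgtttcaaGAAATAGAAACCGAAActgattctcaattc
Ifitm3, first 30 transcribed bases, chr7:141010715-141010744, minus strand: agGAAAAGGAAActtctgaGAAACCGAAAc

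Matches began 130 and 124 bases before the start in Bst2, 45 and 39 in Gbp3, and 30 and 24 in Irgm1, and in each pair they overlapped. A match of letters is a description and not a binding site.

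Bst2, or tetherin, which holds budding virus at the membrane, had 5.90, 3.64, 5.66 and 7.23 CPM in SAH and 2.11, 2.02 and 2.09 CPM in Sham (log2FC 1.43 ± 0.23, adjusted p = 0.114). It missed the threshold narrowly although the groups were separate. Ifi27l2a, an interferon-induced mitochondrial protein, had 2.47, 1.14, 1.62 and 2.84 CPM against 0.371, 0.588 and 0.362 CPM (log2FC 2.17 ± 0.38, adjusted p = 0.144). Lgals3bp, a secreted galectin ligand, had 31.04, 22.6, 42.2 and 48.1 CPM against 15.5, 14.7 and 14.7 CPM (log2FC 1.26 ± 0.22, adjusted p = 0.144). SAH 2 was the lowest SAH mouse for all 3 of these genes. Among the most abundant listed genes, Ifi27 had 28.8, 26.3, 30.2 and 35.8 CPM against 21.6, 21.1 and 22.1 CPM (log2FC 0.49 ± 0.10). Stat2, a signal transducer of type I interferon, overlapped between the groups at 23.4, 26.4, 23.03 and 30.96 CPM in SAH and 25.4, 23.8 and 25.1 CPM in Sham, with a 95% interval of −0.16 to 0.30 for its log2FC.

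The GTPases induced by interferon gamma, which attack pathogen-containing vacuoles, had 11 tested of 13 listed. All 11 had a log2 fold change above 0 (median 0.66), against 49.4% of all genes, and 0 passed. An unadjusted p under 0.05 was reached by 8, and DESeq2 called 2. Over all genes those shares were 4.92% and 0.943% (higher). Gbp3 was at 7.01, 5.11, 4.49 and 8.47 CPM in SAH and 3.55, 3.16 and 3.62 CPM in Sham (log2FC 0.87 ± 0.22, adjusted p = 0.267). Irgm1 was at 11.5, 9.45, 15.4 and 16.2 CPM in SAH and 9.25, 8.31 and 8.41 CPM (log2FC 0.60 ± 0.18, adjusted p = 0.381). The groups were separate for both genes, with SAH 4 the highest.

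Genes of MHC class I, which shows peptides from inside the cell to CD8 T cells, were measured with their peptide-loading partners. All 17 tested had a log2 fold change above 0 (median 0.81), against 49.4% of all tested genes, and 0 passed. In 12 (70.6%) the groups were separate, against 5.02% of all genes with SAH higher. An unadjusted p under 0.05 was reached by 12, and DESeq2 called 7. Over all genes those shares were 4.92% and 0.943% (higher). B2m, the shared light chain, had 121, 92.99, 155 and 179.9 CPM in SAH and 74.2, 75.9 and 83.5 CPM in Sham (log2FC 0.82 ± 0.19, adjusted p = 0.213). H2-K1 had 33.9, 25.3, 50.1 and 53.4 against 15.9, 15.4 and 17.2 CPM (log2FC 1.33 ± 0.23, adjusted p = 0.144). H2-D1 had 17.4, 11.6, 27.9 and 28.01 against 7.26, 7.61 and 9.61 CPM (log2FC 1.38 ± 0.29, adjusted p = 0.196). SAH 3 and SAH 4 were the highest for all 3. Since H2 genes are nearly identical in places, reads that map to several were discarded and single-gene counts are uncertain. Tapbp, the tapasin chaperone, differed less (25.96, 25.2, 27.6 and 27.97 against 23.03, 20.6 and 21.7 CPM). Psme1, an activator of the proteasome, differed least of those named (log2FC 0.08, 95% interval −0.05 to 0.20).

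MHC class II genes, which present peptides taken up from outside, had the highest median of the lists, 1.29 over 7 tested genes. None passed (0 of 7, with 6 at an unadjusted p under 0.05 and 5 called by DESeq2), and 6 had separate groups. Over all genes those shares were 4.92%, 0.943% and 5.02% (higher in SAH). Cd74, the invariant chain, had 5.90, 5.44, 2.07 and 5.39 CPM in SAH and 0.991, 1.65 and 2.01 CPM in Sham (log2FC 1.6 ± 0.36, adjusted p = 0.213). SAH 3 was far below the other SAH mice. H2-Aa had 2.66, 4.23, 1.26 and 3.92 against 0.660, 1.07 and 0.885 CPM (log2FC 1.80 ± 0.40, adjusted p = 0.205), again with SAH 3 lowest. Ctss, the protease cathepsin S that trims the invariant chain, had 88.6, 69.2, 109.8 and 126 against 59.2, 60.8 and 66.2 CPM (log2FC 0.66 ± 0.17, adjusted p = 0.272). H2-DMa was the exception, at 13.01, 12.2, 12.1 and 12.9 and 11.9, 12.8 and 12.9 CPM. Without SAH 3, Cd74 and H2-Aa passed, as did H2-Eb1 and H2-Ab1, named after their values were seen. Without SAH 2 the list had 1 past the threshold, and without SAH 1, SAH 4 or any 1 Sham mouse it had 0.

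Complement components and regulators had 18 of 20 tested genes above 0 (median 0.60), 11 with separate groups and Serping1 as the gene that passed, while DESeq2 called 9. Over all genes 49.4% lay above 0, 5.02% were separate with SAH higher and DESeq2 called 0.943% higher. The list median was 0.38 without SAH 3, where 4 of 19 passed, against 0.654% of all genes. Without SAH 1, SAH 4, Sham 5 or Sham 7 the list had 0 past the threshold. C4b, the central component of the classical pathway, had 70.5, 41.6, 126 and 92.9 CPM in SAH and 24.6, 25.8 and 24.7 CPM in Sham (log2FC 1.72 ± 0.30, adjusted p = 0.144). SAH 3 was highest and SAH 2 lowest, and reads shared with the near-identical C4a gene were discarded. The microglial C1q chain gene C1qa had 57.1, 47.9, 72.1 and 68.6 against 42.2, 44.01 and 48.1 CPM (log2FC 0.45 ± 0.13), with SAH 2 inside the Sham range. C1qc had 59.5, 50.01, 72.97 and 69.99 against 43.6, 46.1 and 48.2 CPM (log2FC 0.46 ± 0.12). Clu, the abundant complement inhibitor clusterin, overlapped between groups (log2FC 0.13, 95% interval −0.08 to 0.34).

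Chemokines were mostly low and did not pass (0 of 16 tested, 7 higher at an unadjusted p under 0.05, 2 by DESeq2). Over all genes 4.92% were higher at that p and DESeq2 called 0.943% higher. The list median was 0.09. With 1 mouse left out it ran from 0.023 (SAH 2) to 0.18 (Sham 7), with 0.051 without SAH 4, 0.052 without SAH 1 and 0.17 without SAH 3. Over the 11 genes with at least 10 counts in each mouse it was 0.014. Ccl5, which draws T cells and monocytes, had 0.919, 0.368, 1.97 and 1.40 CPM in SAH and 0.0413, 0 and 0.0804 CPM in Sham, the latter from 1, 0 and 2 counts. A floor of 3 counts corresponds to 0.110 to 0.124 CPM in these Sham libraries, so all 3 lay under it, while each SAH mouse lay above. Ccl12, a monocyte attractant, had 0.580, 0.735, 0.505 and 1.52 against 0.248, 0.221 and 0.201 CPM (log2FC 1.91 ± 0.48, adjusted p = 0.263). Cxcl12, a retention signal for leukocytes and progenitors, had 53.1, 52.6, 54.1 and 101 against 40.2, 46.2 and 46.2 CPM, with SAH 4 far above the rest. Neuronal Cx3cl1 lay slightly lower in each SAH mouse, at 622, 625, 583 and 652 against 655, 658 and 657 CPM (log2FC −0.08 ± 0.05, adjusted p = 0.732).

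Macrophage genes of the brain borders had higher means in SAH. All 9 tested genes had a log2 fold change above 0 (median 0.90), 7 (77.8%) had separate groups and F13a1 passed. Over all genes those shares were 49.4%, 5.02% and 0.0797% (higher in SAH). DESeq2 called 4, against 0.943% of all genes, as did the fit with Naive mice, against 0.529%. Mrc1, the mannose receptor, had 11.2, 8.94, 8.63 and 8.31 CPM in SAH and 5.24, 5.59 and 6.07 CPM in Sham (log2FC 0.71 ± 0.13, adjusted p = 0.144). Stab1, a scavenger receptor, had 21.1, 18.1, 30.1 and 27.05 against 14.2, 13.1 and 13.2 CPM (log2FC 0.83 ± 0.16, adjusted p = 0.153). Cd163, the receptor for hemoglobin bound to haptoglobin, had 2.18, 1.76, 2.93 and 3.44 against 0.991, 0.809 and 1.29 CPM (log2FC 1.32 ± 0.29, adjusted p = 0.196). The lowest SAH mouse was above the highest Sham mouse for all 3. List scores in SAH ran from 0.69 to 1.09, those in Sham from −0.15 to 0.16 and those in Naive mice from −0.70 to −0.39, so Naive mice lay below Sham mice. The meningeal fibroblast list showed this order too, except in SAH 3, and the part of attached meninges was not tested.

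Homeostatic microglia genes had 5 of 10 above 0, a median of 0.01 and 0 past the threshold (2 at an unadjusted p under 0.05, 0 by DESeq2). The sign of that median depended on single mice, at −0.084 without SAH 4, −0.046 without SAH 1, 0.052 without Sham 7 and 0.13 without SAH 3. It was also just below 0 without Sham 5 (−0.0064) or Sham 6 (−0.0019). P2ry12, the purinergic receptor of resting microglia, had 48.3, 44.3, 35.5 and 47.7 CPM in SAH and 43.01, 47.9 and 51.7 CPM in Sham (95% interval of the log2FC −0.35 to 0.13). Csf1r, the growth factor receptor of microglia and macrophages, had 135, 121, 151 and 153 against 119, 116 and 123 CPM (log2FC 0.23 ± 0.08, adjusted p = 0.477), with SAH 2 inside the Sham range. The disease-associated set had a median of 0.32 over 11 genes, with Lyz2 past the threshold. Lyz2 is also in the phagocytosis and lysosome list, so its call is not separate evidence there. Spp1, osteopontin, had 19.4, 12.4, 12.98 and 7.07 CPM against 6.65, 5.92 and 5.51 CPM (log2FC 1.10 ± 0.28, adjusted p = 0.270), where SAH 4 was close to the Sham mice. Apoe overlapped between groups (95% interval of the log2FC −0.09 to 0.20), and Axl, a receptor for dying cells, had 67.7, 61.6, 66.2 and 62.8 against 57.5, 57.1 and 57.9 CPM (log2FC 0.17 ± 0.05).

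Phagocytosis and lysosome genes lay above 0 in 23 of 24 (median 0.36), with Lyz2 past the threshold and 19 higher at an unadjusted p under 0.05. Over all genes 49.4% lay above 0 and 4.92% were higher at that p. Fcgr2b, the inhibitory Fc receptor, had 5.56, 3.82, 6.41 and 6.03 CPM in SAH and 2.39, 2.06 and 3.02 CPM in Sham (log2FC 1.13 ± 0.21, adjusted p = 0.144). The groups were separate. Differences were small for the abundant cathepsins. Ctsb was at 636, 607, 701 and 649.6 against 588, 591 and 603 CPM (log2FC 0.13 ± 0.05). Ctsd was at 403, 370.2, 504 and 476 against 354, 349 and 378 CPM (log2FC 0.28 ± 0.10), with SAH 2 inside the Sham range.

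Few leukocyte genes had enough reads to be tested. Of 6 monocyte genes 2 were tested and of 8 neutrophil genes 3. By name 11 of 12 T and NK cell genes and 4 of 5 B cell genes are in the files, and 0 of them were tested. Ccr2, the receptor of inflammatory monocytes, had 1.55, 0.882, 0.101 and 0.679 CPM in SAH and 0.124, 0.221 and 0.121 CPM in Sham (log2FC 2.32 ± 0.72, adjusted p = 0.400). SAH 3 lay below each Sham mouse and the other SAH mice above them, and Sham values were near the floor of 3 counts. Without SAH 3 Ccr2 passed (log2FC 2.66, adjusted p = 0.0522, edgeR). In no other fit did a tested monocyte gene pass, DESeq2, limma-voom and the fit with Naive mice included. The other tested monocyte gene had a log2FC of 0.09. The neutrophil gene S100a9 had 0.580, 0.147, 0.606 and 0.320 CPM in SAH and 0.289, 0.0735 and 0.402 CPM in Sham, with overlap. Csf3r, the receptor for the neutrophil growth factor, had 6.14, 5.52, 6.77 and 10.1 against 4.71, 5.48 and 5.47 CPM (log2FC 0.45 ± 0.20).

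**Figure D4:**
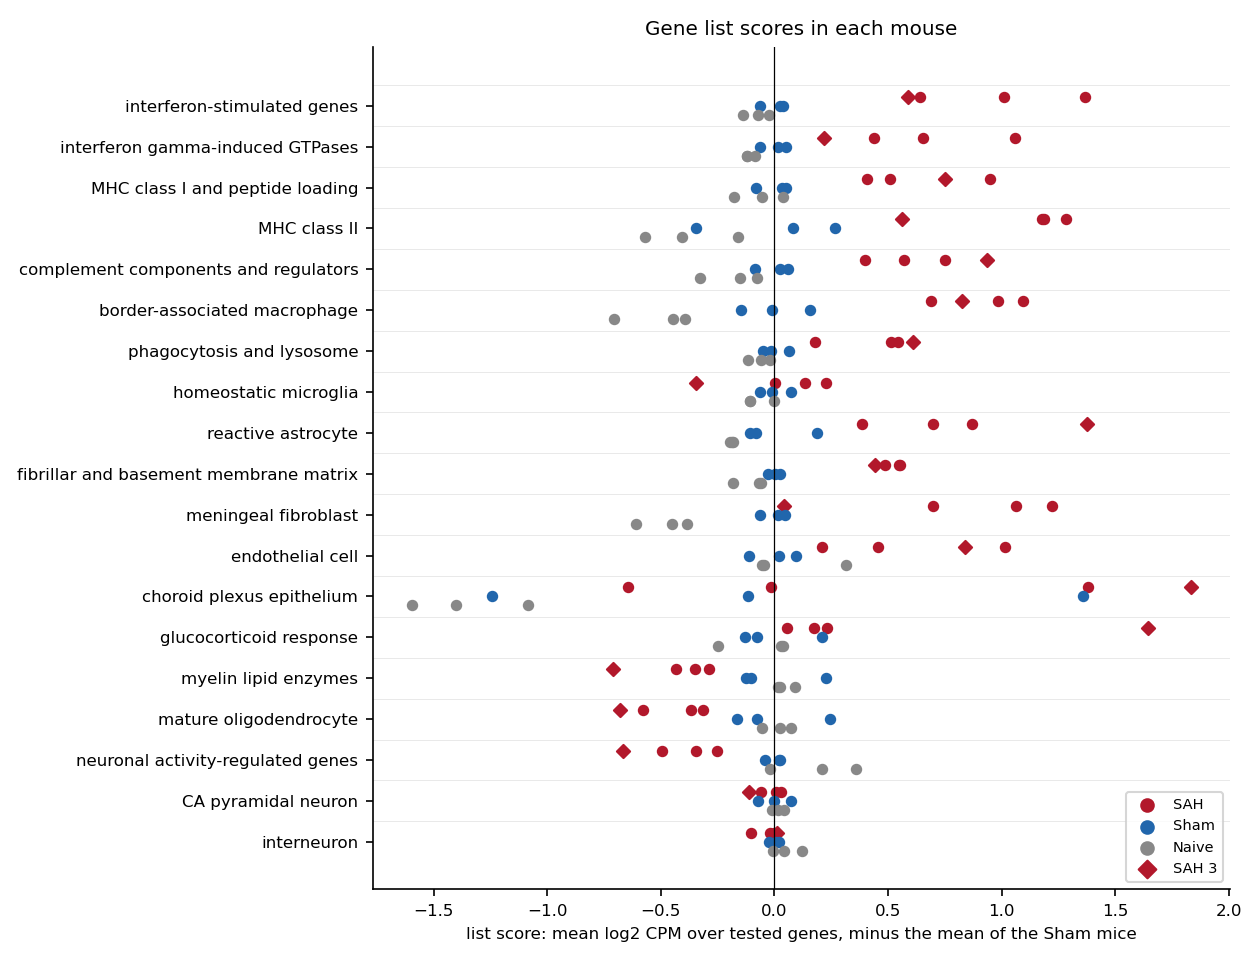
Points are list scores of single mice on the x axis (mean log2 CPM over the tested genes of a list, minus the mean of the Sham mice), with lists on the y axis and SAH 3 drawn as a diamond. The interferon, MHC, complement and border-associated macrophage lists lie to the right of Sham in SAH, the oligodendrocyte, myelin lipid and activity lists to the left, and the choroid plexus list spreads widely in both groups.

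Extracellular matrix genes lay above 0 in 34 of 39 (median 0.39), with 14 separate between groups (35.9%). None of the 39 passed with all 7 mice (0, against 18 at an unadjusted p under 0.05 and 13 by DESeq2), and 13 of 38 passed without SAH 3. Over all genes 49.4% lay above 0, 5.02% were separate with SAH higher and 4.92% were higher at that p. DESeq2 called 0.943% higher, and 0.654% passed without SAH 3. With limma-voom or without SAH 1, SAH 4 or any 1 Sham mouse 0 of the list passed (list medians 0.36 to 0.43). Nid1, a linker of basement membranes, had 14.6, 15.4, 11.01 and 16.4 CPM in SAH and 7.47, 8.05 and 8.85 CPM in Sham (log2FC 0.82 ± 0.14, adjusted p = 0.144). Fn1, fibronectin, had 77.7, 71.6, 89.4 and 109.99 against 56.8, 52.5 and 42.2 CPM (log2FC 0.79 ± 0.15, adjusted p = 0.144). The proteoglycan Bgn had 32.1, 27.1, 20.5 and 31.8 against 12.5, 16.9 and 16.1 CPM (log2FC 0.87 ± 0.16, adjusted p = 0.144). All 3 were separate between groups. Timp3, a matrix-bound protease inhibitor, had 132, 128, 177 and 150.5 against 103, 108 and 116 CPM (log2FC 0.43 ± 0.11). The groups were separate here too. Pcolce, which helps to process procollagen and is outside the list, had 9.33, 10.6, 12.9 and 14.4 against 4.95, 4.74 and 7.20 CPM (log2FC 1.07 ± 0.19, adjusted p = 0.144). The most abundant member of the list, Sparc, overlapped between groups (95% interval of the log2FC −0.12 to 0.38).

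Lox, Timp1 and Col3a1 were chosen after their values were seen. The collagen crosslinker Lox had 2.03, 1.36, 3.69 and 0.999 CPM in SAH and 0.289, 0.404 and 0.483 CPM in Sham (log2FC 2.32 ± 0.49, adjusted p = 0.196). Timp1, a secreted inhibitor of matrix proteases, had 0.435, 0.221, 3.99 and 0.919 against 0.0826, 0.184 and 0.241 CPM (log2FC 2.94 ± 1.05, adjusted p = 0.514), with SAH 3 far above the rest and SAH 2 inside the Sham range. Col3a1 had 14.6, 11.8, 4.80 and 6.95 against 3.30, 3.57 and 4.71 CPM (log2FC 1.31 ± 0.34, adjusted p = 0.276), highest in SAH 1 and SAH 2.

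Meningeal fibroblast genes had the same order of mice, SAH 1, 2, 4 and 3, and 6 of them are also in the matrix list. All 10 had a log2 fold change above 0 (median 0.89), 4 had separate groups and 0 passed. An unadjusted p under 0.05 was reached by 8, DESeq2 called 5 and 9 of 10 passed without SAH 3. Over all genes 5.02% were separate with SAH higher, 4.92% higher at that p, 0.943% by DESeq2 and 0.654% without SAH 3. With limma-voom, the choroid plexus covariate or any other mouse left out 0 of the list passed. Scores of the meningeal list were 1.22, 1.06, 0.04 and 0.70 in SAH mice 1 to 4 and −0.06, 0.01 and 0.05 in Sham mice 5 to 7. SAH 3 lay within the Sham range. Igf2, a growth factor made by meninges and choroid plexus, had 185, 152, 88.97 and 112 CPM in SAH and 50.2, 62.6 and 85.6 CPM in Sham (log2FC 1.02 ± 0.25, adjusted p = 0.240). Col1a2 had 34.2, 29.2, 14.4 and 23.01 against 11.9, 11.3 and 13.8 CPM (log2FC 1.03 ± 0.24), again lowest in SAH 3 among SAH mice. The retinoic acid enzyme gene Aldh1a2 had 11.8, 11.1, 7.98 and 8.91 against 6.56, 6.47 and 5.87 CPM (log2FC 0.66 ± 0.15). Ogn, osteoglycin, had 22.7, 18.6, 6.67 and 10.9 against 6.56, 7.17 and 6.68 CPM (log2FC 1.11 ± 0.35). Scores in Naive mice ran from −0.61 to −0.39, below those in Sham. The part of attached meninges in these values was not tested.

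Endothelial genes had 10 of 10 above 0 (median 0.72), 4 separate and 0 past the threshold (8 at an unadjusted p under 0.05, 4 by DESeq2). Over all genes 49.4% lay above 0 and 5.02% were separate with SAH higher. At that p 4.92% of all genes were higher, and DESeq2 called 0.943% higher. Vwf, von Willebrand factor, had 16.6, 17.1, 27.1 and 31.6 CPM in SAH and 7.47, 10.1 and 10.9 CPM in Sham (log2FC 1.28 ± 0.24, adjusted p = 0.144). Cdh5, the cadherin of endothelial junctions, had 13.4, 15.4, 17.2 and 21.9 against 9.49, 9.78 and 8.57 CPM (log2FC 0.87 ± 0.16, adjusted p = 0.144). SAH 3 and SAH 4 were the higher mice for both. The blood-brain barrier transporter Slco1a4 differed less (31.7, 36.7, 34.1 and 49.7 against 29.4, 31.6 and 28.6 CPM). Mural cell genes had a median of 0.42 over 10, with 3 separate between groups, against 5.02% of all genes. Tagln, of smooth muscle, had 8.80, 8.31, 6.06 and 10.1 against 4.21, 4.93 and 4.87 CPM (log2FC 0.84 ± 0.17, adjusted p = 0.186), with separate groups. Vtn, vitronectin of pericytes, had 78.9, 81.4, 69.1 and 90.7 against 58.5, 69.2 and 55.4 CPM (log2FC 0.39 ± 0.10), with SAH 3 inside the Sham range. Pdgfrb, the growth factor receptor of pericytes, had 26.4, 27.4, 26.7 and 31.9 against 24.6, 26.3 and 22.8 CPM (log2FC 0.20 ± 0.09). Mylk, the myosin kinase of smooth muscle, is outside the lists and had 23.98, 24.5, 25.9 and 25.4 against 17.4, 19.8 and 18.8 CPM (log2FC 0.42 ± 0.07, adjusted p = 0.144), with little spread within the groups. Choroid plexus scores were also highest in SAH 3 and SAH 4 among the SAH mice. With those scores as a covariate the median was 0.51 for the endothelial list and 0.35 for the mural list, with 0 past the threshold in either.

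Hypoxia and angiogenesis genes had a small median (0.16 over 24 tested) and 0 past the threshold (5 higher at an unadjusted p under 0.05, 2 by DESeq2). Over all genes 4.92% were higher at that p and DESeq2 called 0.943% higher. Edn1, the vasoconstrictor endothelin, had 1.26, 1.51, 3.69 and 2.88 CPM in SAH and 0.454, 0.735 and 0.603 CPM in Sham (log2FC 1.94 ± 0.42, adjusted p = 0.196), with separate groups. The VEGF receptor Flt1 overlapped (27.4, 38.6, 60.4 and 70.3 against 22.9, 29.3 and 24.2 CPM), as did the glucose transporter Slc2a1 (55.7, 68.6, 169 and 89.7 against 48.5, 61.3 and 65.2 CPM), which was highest in SAH 3. Hif1a and Ldha had narrow 95% intervals, −0.08 to 0.16 and −0.08 to 0.15.

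Heme and iron genes had a median of 0.05 over 17 tested, with Cp past the threshold and 3 called by DESeq2. An unadjusted p under 0.05 was reached by 5 genes that were higher and by 1 that was lower, against 4.92% and 2.89% of all genes. The median was 0.018 without SAH 3, 0.032 without SAH 1 and 0.075 without Sham 7. Hmox1, the enzyme that breaks down heme, was chosen after its values were seen. It had 8.36, 6.84, 13.7 and 8.99 CPM in SAH and 5.12, 4.82 and 6.396 CPM in Sham, with separate groups (log2FC 0.79 ± 0.22, adjusted p = 0.338). Fth1, the ferritin heavy chain that stores iron, had 1925, 1889.8, 2264 and 1973 CPM in SAH and 1744, 2083 and 2167 CPM in Sham (95% interval of its log2FC −0.18 to 0.20). The iron carrier gene Trf had 289.9, 265, 244 and 279.6 against 277, 293 and 303 CPM (95% interval of the log2FC −0.25 to 0.03). Both intervals included 0. In the TGF-beta and BMP pathway 24 of 32 genes were above 0 (median 0.16), against 49.4% of all genes, and 0 passed. At an unadjusted p under 0.05, 12 were higher and 1 was lower, against 4.92% and 2.89% of all genes. DESeq2 called 4, against 0.943% of all genes higher. The ligand Bmp6 had 8.51, 8.05, 7.27 and 8.75 against 3.76, 5.66 and 6.11 CPM (log2FC 0.65 ± 0.17, adjusted p = 0.272). The BMP target Id1 had 7.49, 7.87, 11.4 and 8.71 against 5.201, 5.74 and 6.36 CPM (log2FC 0.62 ± 0.16). The signal transducer Smad3 had 89.5, 92.96, 109 and 107 against 84.7, 82.5 and 79.2 CPM (log2FC 0.28 ± 0.08). Each of these 3 had separate groups.

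Reactive astrocyte genes lay above 0 in 13 of 13 (median 0.71), with Cp past the threshold, 6 separate between groups (46.2%) and 6 called by DESeq2. Cp is also in the heme and iron list. Over all genes 49.4% lay above 0, 5.02% were separate with SAH higher and DESeq2 called 0.943% higher. Gfap, the astrocyte filament protein, had 768, 495, 1142 and 842 CPM in SAH and 349.7, 371 and 478 CPM in Sham (log2FC 1.02 ± 0.23, adjusted p = 0.213). Vim, vimentin, had 69.8, 50.9, 117 and 78.7 against 29.5, 37.4 and 38.2 CPM (log2FC 1.17 ± 0.24, adjusted p = 0.185). SAH 3 was highest for both and SAH 2 lowest. Serpina3n, a protease inhibitor of activated astrocytes, had 83.2, 70.6, 162 and 115 against 59.3, 71.6 and 69.99 CPM (log2FC 0.68 ± 0.24), with SAH 2 inside the Sham range. Genes of resting astrocytes had a median of 0.14 over 10, with 0 past the threshold (1 at an unadjusted p under 0.05, 0 by DESeq2). That median was 0.035 without SAH 3. Aqp4, the water channel, had 294, 239, 225 and 242 against 201, 183 and 246 CPM (95% interval of the log2FC 0.00 to 0.50). Glul, glutamine synthetase, had 1499.9, 1474, 2234 and 1850.1 against 1465, 1541 and 1693 CPM, highest in SAH 3.

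The score of glucocorticoid-responsive genes was highest in SAH 3. Scores were 0.06, 0.17, 1.64 and 0.23 in SAH mice 1 to 4 and −0.13, −0.08 and 0.21 in Sham mice 5 to 7. Plin4, a lipid droplet protein, had 0.870, 0.993, 24.5 and 3.56 CPM in SAH and 0.784, 0.846 and 1.01 CPM in Sham. Klf9, a stress hormone target, had 202, 196, 326 and 200.1 against 182, 196 and 217 CPM. Lcn2, the iron-binding lipocalin, had 1.02, 0.625, 4.60 and 0.839 against 0.165, 0.110 and 0.362 CPM (log2FC 3.00 ± 0.86, adjusted p = 0.345). SAH 3 was the high mouse for all of them. Lcn2 was also above each Sham mouse in the other SAH mice, and Plin4 in SAH 4 exceeded the Sham range. The list median was 0.38, and 0.020 without SAH 3. The list had 0 past the threshold (4 higher at an unadjusted p under 0.05, 1 by DESeq2). Over all genes 4.92% were higher at that p and DESeq2 called 0.943% higher.

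Genes of mature oligodendrocytes had lower means in SAH. In 18 of 19 (94.7%) all 4 SAH mice were below all 3 Sham mice, against 4.53% of all genes, with a median log2 fold change of −0.50, although 0 passed with these 7 mice. The count at an unadjusted p under 0.05 was 16 lower, DESeq2 called 12 and the fit with Naive mice 9. Without SAH 3, 5 passed, among them Mag, Mobp and Mbp. Over all genes those lower shares were 2.89%, 0.28%, 0.192% and 0.18%. With limma-voom, with the choroid plexus covariate or without SAH 1, SAH 4 or any 1 Sham mouse 0 passed. The list median in these fits ran from −0.58 to −0.35. Scores were −0.32, −0.37, −0.68 and −0.58 in SAH mice 1 to 4 and −0.17, −0.08 and 0.24 in Sham mice 5 to 7. SAH 3 and SAH 4 were the lowest.

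Mbp, the myelin basic protein, had 2939.9, 2829, 2728 and 2324 CPM in SAH and 3453, 3778 and 4871 CPM in Sham (log2FC −0.58 ± 0.11, adjusted p = 0.164). Mag, the adhesion protein between myelin and axon, had 176, 187, 139 and 137 against 227, 239 and 270.3 CPM (log2FC −0.62 ± 0.11, adjusted p = 0.144). No SAH mouse reached the lowest Sham mouse for either of them, and Sham 7 was the highest Sham mouse for each. Mog, on the outer myelin surface, had 63.9, 66.1, 49.4 and 46.1 against 82.6, 82.9 and 111 CPM (log2FC −0.71 ± 0.15, adjusted p = 0.186). The myelin enzyme gene Cnp had a log2FC of −0.55 ± 0.12, and Mobp, which helps to compact myelin, −0.47 ± 0.13. The exception in the list was Apod, a lipid carrier also made outside oligodendrocytes and chosen after its values were seen, at 210.2, 182, 411 and 254 CPM in SAH and 125, 151 and 171 CPM in Sham (log2FC 0.83 ± 0.24, adjusted p = 0.377). Its highest value was in SAH 3.

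Myelin lipid enzymes lay below 0 in 9 of 9 (median −0.47), with 7 separate (77.8%), 0 past the threshold, 7 lower at an unadjusted p under 0.05 and 4 called by DESeq2. Over all genes 4.53% were separate with SAH lower, 2.89% were lower at that p and DESeq2 called 0.28% lower. Ugt8a, which makes galactosylceramide, had 72.96, 63.1, 31.2 and 65.8 CPM in SAH and 83.1, 79.7 and 109 CPM in Sham (log2FC −0.64 ± 0.23, adjusted p = 0.539), with SAH 3 far below the rest. The ceramide synthase gene Cers2 had 60.9, 61.6, 59.1 and 57.1 against 68.6, 70.5 and 77.6 CPM (log2FC −0.28 ± 0.06, adjusted p = 0.196). Cnp is a myelin protein rather than a lipid enzyme and is in both lists, as are other members, so the lists are not separate evidence. The cholesterol synthesis list had a median of −0.04 over 17, with 0 past the threshold, 0 at an unadjusted p under 0.05 and 0 by DESeq2. Its median was −0.099 without Sham 6, −0.019 without SAH 3 and −0.014 without Sham 7.

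Precursor genes had a median of −0.18 over 10, against −0.50 for mature ones, with 0 past the threshold (2 lower and 1 higher at an unadjusted p under 0.05, 1 lower by DESeq2). Without Sham 7 the medians were −0.11 and −0.35. The difference between the lists was not tested. Bcas1, of newly myelinating cells, had 179, 164, 148 and 147 CPM in SAH and 182, 200.03 and 246 CPM in Sham (log2FC −0.39 ± 0.10, adjusted p = 0.276). Olig1 had 101, 98.8, 115 and 93.3 against 109.8, 108 and 124 CPM (log2FC −0.16 ± 0.08), with overlap. Gpr17, a receptor of committed precursors, had 82.5, 73.6, 36.5 and 92.6 against 87.1, 73.6 and 91.8 CPM, with SAH 3 far below the rest and SAH 4 just above the highest Sham mouse. Gjc3, a glial connexin outside the lists, was at 43.2, 42.1, 36.5 and 41.5 against 50.9, 54.8 and 65.2 CPM (log2FC −0.48 ± 0.09, adjusted p = 0.153). Serinc5, a membrane protein rich in myelin, had 95.8, 101, 93.97 and 92.05 against 116, 114 and 119 CPM (log2FC −0.28 ± 0.05, adjusted p = 0.144). The groups were separate for both. Fnbp1, a membrane-bending protein, had 137, 132, 123 and 131 against 156, 149 and 164 CPM (log2FC −0.26 ± 0.05). The noncoding 9630013A20Rik had 2.47, 2.79, 1.92 and 2.48 against 3.88, 4.34 and 7.04 CPM (log2FC −1.06 ± 0.23).

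**Figure D5:**
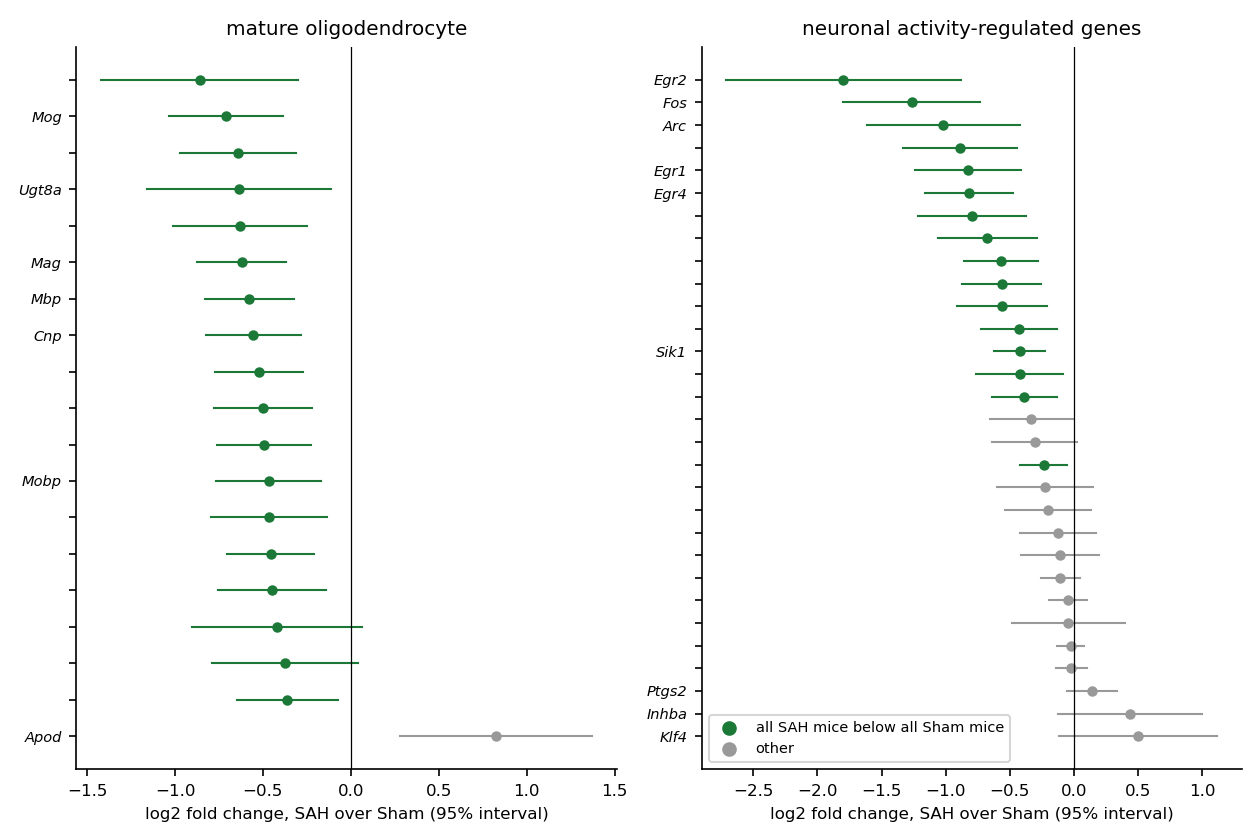
Points are log2 fold changes of SAH over Sham with 95% intervals for the 19 mature oligodendrocyte genes (left) and the 30 activity-regulated genes (right), in green where all SAH mice lay below all Sham mice and with names for the genes whose values are given in the text. Apod is the listed oligodendrocyte gene above 0, and 18 of the 19 and 16 of the 30 genes are green.

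Neuronal activity-regulated genes also had lower means. Of 30 tested genes 27 had a log2 fold change below 0 (median −0.36), and 16 (53.3%) were separate between groups, against 4.53% of all genes. None passed with these 7 mice (0, with 17 lower at an unadjusted p under 0.05), while DESeq2 called 11, the fit with Naive mice 8 and the fit without SAH 3 called 9. Over all genes those lower shares were 2.89%, 0.28%, 0.192% and 0.18%. With limma-voom, with the choroid plexus covariate or without SAH 1, SAH 4 or any 1 Sham mouse 0 passed. The list median in these fits ran from −0.40 to −0.32. Scores were −0.35, −0.25, −0.67 and −0.50 in SAH mice 1 to 4 and 0.02, −0.04 and 0.02 in Sham mice 5 to 7, so SAH 3 was the lowest and each SAH mouse was below each Sham mouse.

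Fos, the AP-1 subunit induced by firing, had 12.8, 16.7, 6.77 and 9.11 CPM in SAH, 30.1, 24.2 and 28.04 CPM in Sham and 41.7, 47.4 and 33.2 CPM in Naive mice. Its log2 fold change of SAH over Sham was −1.26 ± 0.24 (adjusted p = 0.144). Arc, which regulates synaptic receptors, had 149.6, 147, 54.2 and 115 CPM in SAH and 249, 222 and 237 CPM in Sham (log2FC −1.02 ± 0.27, adjusted p = 0.275). Both genes were lowest in SAH 3, and no SAH mouse reached the Sham range. The zinc finger factor gene Egr1 had 132, 142, 73.4 and 114 against 226, 178 and 211 CPM (log2FC −0.83 ± 0.18). Egr4 had 17.3, 24.1, 16.5 and 14.02 against 29.8, 31.1 and 34.5 CPM (log2FC −0.82 ± 0.15). Egr2, chosen after its values were seen, had 2.13, 3.35, 0.404 and 1.76 against 7.72, 5.55 and 7.20 CPM (log2FC −1.80 ± 0.41, adjusted p = 0.213), with SAH 3 the lowest. Sik1, a kinase induced by cAMP, had 11.99, 12.98, 12.5 and 10.6 against 16.2, 16.2 and 15.97 CPM (log2FC −0.42 ± 0.09, adjusted p = 0.196). The 3 listed genes above 0, Ptgs2, Inhba and Klf4, were also chosen after their values were seen and had 95% intervals of −0.05 to 0.34, −0.13 to 1.00 and −0.11 to 1.12, each including 0.

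Neuron type genes differed little. Medians were 0.21 for dentate granule neurons (7 genes), −0.02 for CA pyramidal neurons (9) and −0.03 for interneurons (9), with 0 past the threshold in each and 0 by DESeq2. At an unadjusted p under 0.05 there was 1 gene higher in the dentate list, and 1 lower in each of the other two. The dentate median was 0.061 without SAH 4, 0.073 without Sham 5, 0.13 without SAH 3 and 0.32 without Sham 7. Leaving out 1 mouse gave −0.042 to 0.025 for pyramidal neurons, above 0 without Sham 6 or Sham 7, and −0.078 to 0.0037 for interneurons, above 0 without SAH 1. C1ql2, a synaptic organizer of mossy fibers, had 84.8, 82.7, 101 and 113 CPM in SAH and 67.7, 84.96 and 82.1 CPM in Sham (95% interval of the log2FC 0.02 to 0.55). Pcp4, of CA2 neurons, had 96.1, 93.2, 92.4 and 82.7 against 99.02, 107 and 104 CPM (log2FC −0.18 ± 0.06, adjusted p = 0.460). Sst, somatostatin, had 198, 208, 179 and 161 against 214, 218 and 226 CPM (log2FC −0.23 ± 0.08, adjusted p = 0.474). Both were separate between groups, with SAH 4 the lowest. Gad1, the GABA-making enzyme, had an interval of −0.04 to 0.21. Genes of cycling cells and neuroblasts had a median of −0.32 over 9 with 0 past the threshold (2 lower at an unadjusted p under 0.05, 1 by DESeq2), and the median was −0.16 without Sham 7. Dcx, doublecortin of young neurons, had 29.5, 28.6, 22.6 and 21.1 against 35.003, 31.7 and 28.6 CPM (log2FC −0.32 ± 0.13). Sox11, a factor of immature neurons, had 18.8, 16.8, 13.1 and 15.7 against 22.8, 21.5 and 20.3 CPM (log2FC −0.42 ± 0.11, adjusted p = 0.289). SAH 3 and SAH 4 were the lowest mice for both. Ependyma genes had 6 of 6 log2FC below 0 (median −0.14), 0 past the threshold, 1 lower at an unadjusted p under 0.05 and 0 by DESeq2. That median turned to 0.019 without Sham 7 and was −0.34 without Sham 5 and −0.23 without SAH 1. Ependyma scores ran from −0.30 to −0.05 in SAH, within the −0.37 to 0.33 of the Sham mice.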

How the data were processed

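Gene counts were deposited by the authors as 1 table per mouse. According to the study's methods, ribosomal RNA was depleted and stranded libraries were sequenced as read pairs. By the same methods, reads were aligned to mm9 with STAR and counted per gene name with featureCounts, and only unique, unambiguous pairs were kept. The header of the deposited counts gives featureCounts version 1.6.2. Genes with near-identical copies therefore lose reads.

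Counts as deposited for 4 SAH and 3 Sham mice were compared with edgeR 4.0.16 (R 4.3.3) using TMM factors, the filterByExpr filter (minimum count 10, minimum total 15) and the quasi-likelihood test, with Benjamini-Hochberg adjustment over 15051 of 24391 gene names and a threshold of 0.10. Each mouse gave 1 library, so p-values measure the spread between mice. Pairs of libraries within a group differed by more than sampling noise (chi-square per degree of freedom 4.28 to 19.3). The calls were repeated with DESeq2 1.42.0, which was also the study's own tool, limma-voom 3.58.1, other scaling, filters and thresholds, all 10 mice, and each mouse left out. Printed CPM used TMM factors over 10 libraries. The SE is the log2 fold change divided by the square root of F, and intervals are 95% t intervals with moderated degrees of freedom. A floor of 3 counts covers counting error only. List scores used a prior count of 2. The script was tested on simulated data.

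The genes named are all past the threshold, the next 10 per direction by p with separate groups, and in each list up to 4 most abundant members and 2 with the smallest p. Members and lists were chosen with earlier results of these data known. Some genes that this rule selects are not reported here. Promoter windows come from RefSeq (GRCm38.p6), where 11368 of the tested genes had one. Coordinates are mm9, as in the count tables.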

Additional observations from a re-analysis of the deposited data

Results flagged for a closer look

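In each value below 1 of the 4 SAH mice lay so far from the other 3 that its gap, divided by the range of the group, exceeded Dixon's 95% critical value for 4 values. Of 156 SAH groups tested 11 exceeded it, 7 of them through SAH 3. Chance alone exceeds it in about 1 of 20 groups.

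SAH 3 had the low value for Serping1 (14.7 CPM) and Cd74 (2.07 CPM) and for the MHC class II score (0.56). It had the high value for Plin4 (24.5 CPM), Klf9 (326 CPM), Lcn2 (4.60 CPM) and the glucocorticoid response score (1.64). SAH 4 had the high value for Cxcl12 (101 CPM), Ptrf (25.1 CPM) and the pericyte and smooth muscle score (0.68). SAH 1 had the high value for Itih2 (9.28 CPM).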

How the results depend on the processing

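The count of genes past the threshold moved widely, from 12 higher and 0 lower to 182 and 54 with DESeq2, 39 and 7 without a count filter, and 80 and 29 in a fit of all 10 mice. limma-voom called 2 higher, an adjusted p under 0.05 left 2 and under 0.01 left 0 (DESeq2 at the threshold of 0.10 called 182, and 1176 genes had an unadjusted p under 0.05). Leaving out 1 mouse gave 0 to 98 higher and 0 to 27 lower. The cause of these differences was not tested, and a fit that leaves out a mouse has fewer samples. Median-of-ratios size factors, library size alone, a minimum of 10 counts in each mouse and a robust dispersion fit gave 12 or 13 higher and 0 lower.

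Under the 16 alternatives that fit the data anew, the sign was kept in 1920 of 1929 values of the 122 genes and in 533 of 544 list medians. Leaving out 1 mouse turned the sign of Stat2 (log2 fold change −0.025 to 0.125 over the 7 fits), H2-DMa (−0.030 to 0.027), Fth1 (−0.075 to 0.075) and Alas2 (−0.10 to 0.52). These included Stat2 without SAH 4, Alas2 without SAH 2 and Fth1 without SAH 3 (−0.050). The choroid plexus covariate, an alternative chosen after seeing the data, turned Fth1 to −0.028 and Ttr to −0.043. No paired analysis was possible because the replicate numbers of SAH, Sham and Naive mice are not shared. Depth limits the statements on leukocyte genes, most of which were too low to test.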
